A study of Mus musculus with 24 samples.

Results

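Transcript levels of 10 enzymes that detoxify superoxide and peroxides were followed in engineered muscle tissue. The genes are the superoxide dismutases Sod1, Sod2, and Sod3, catalase (Cat), the glutathione peroxidases Gpx1 and Gpx4, and the peroxiredoxins Prdx1, Prdx3, Prdx5, and Prdx6. Their rows were picked by gene name, and the set was chosen with earlier results of these data known. Each name matched 1 row of the 56941 genes listed, and all 10 were among the 13315 genes that passed the filter on low counts. The tissue was grown from C2C12, an established line of mouse myoblasts that form contracting myotubes in culture. In all 4 groups the cells carried ChR2::tdTomato, a channelrhodopsin that opens under blue light joined to a red fluorescent protein, and were differentiated on fibrin gels in DMEM with horse serum and IGF-1. Tissues of the 3 stimulated groups received light pulses for 60 min daily at 1, 4, or 10 Hz, and control tissues were not stimulated. The authors saw spontaneous twitching in all conditions, so unstimulated controls were not necessarily at rest. They describe 10 Hz as near-tetanic, where fibers do not relax fully between pulses. Each group held 6 libraries from biological replicates of the same line, for 24 in all, so the p-values describe the spread among tissues of 1 line. Light and any contraction it drove came together in every stimulated group and cannot be told apart by these comparisons.

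Contracting muscle produces superoxide in its mitochondria and at its membranes. Superoxide dismutases turn superoxide into hydrogen peroxide, each in its own compartment, and catalase, glutathione peroxidases, and peroxiredoxins then reduce the peroxide. Glutathione peroxidases draw on glutathione and most peroxiredoxins on thioredoxin, and both are kept reduced with NADPH. Many genes of these supply lines are known targets of NRF2, a transcription factor released from its inhibitor KEAP1 under oxidative stress.

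Libraries held 8052369 to 18159144 estimated counts in total, and the 10 genes held from 305 (Sod3) to 10449 (Gpx4) in a single library. Myotube markers were present in every group, with a summed level of 7415 to 13176 CPM over 10 genes, where CPM is the count relative to the scaled library size. The 6 markers of cycling or reserve myoblasts summed to 34.3 to 54.6 CPM in controls, and the ranges with 1, 4, and 10 Hz were 51.4 to 80.0, 47.7 to 58.8, and 43.3 to 65.7 CPM. These 6 markers did not move together. At 1 Hz, 2 were called higher and 1 lower (edgeR, adjusted p under 0.05), and at 4 Hz 2 were higher and 3 lower. Markers of fat cells and of endothelium stayed at or below 0.556 CPM summed. The 5 macrophage markers summed to 48.2 to 58.6 CPM in controls and to 42.0 to 74.1, 47.7 to 68.3, and 39.8 to 54.3 CPM with 1, 4, and 10 Hz. Nearly all of that sum was Cd68, a lysosomal gene that other cells also express (47.5 to 57.6 CPM in controls). Ptprc and Adgre1 were at 0 in every control and 1 Hz library. At 4 Hz each had counts in at least 1 library, as did Ptprc at 10 Hz, where Adgre1 was at 0. Summed markers of Schwann cells or neurons ran from 69.1 to 98.9 CPM in controls and from 36.7 to 55.7 CPM at 1 and 4 Hz, against 79.6 to 110 CPM at 10 Hz. Only 2 of these 5 markers passed the filter on low counts, and Snap25 was at 0 in every control and 4 Hz library. At both 1 and 4 Hz, 1 of the 2 was called lower and the other was estimated higher without a call. Whether cells of these types were present or had a part in the results was not tested. Libraries also differed in the balance of short and long transcripts. This was measured as the mean log2 CPM of the 3329 shortest tested genes minus that of the 3329 longest, each gene centered on its own mean. The index had a median of -0.20 in controls and of -0.01, 0.24, and -0.21 with 1, 4, and 10 Hz. It exceeded 0.3 in 5 libraries, namely 1 Hz replicates 4 and 6 and 4 Hz replicates 1, 3, and 4. Transcripts of ribosomal proteins, most of them short, moved with it, from a median share of 4.51% of counts in controls to 6.29% at 4 Hz.

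Compared in TPM, a level that takes transcript length into account, the 10 genes of the control tissue spanned from Prdx1 to Sod3. Prdx1, a cytosolic peroxiredoxin, was the highest at 792 ± 40.9 TPM (SD, n = 6). Gpx4, which reduces lipid peroxides in membranes, stood at 695 ± 29.1 TPM and Sod1, the cytosolic copper-zinc dismutase, at 602 ± 52.7 TPM. The ranges of these last 2 overlapped, while every control library held more Prdx1 than any held Gpx4. Prdx6 (463 ± 23.2 TPM) and Prdx5 (451 ± 30.4 TPM) followed with overlapping ranges. Below them, without overlap between neighbors, came Gpx1 (179 ± 8.29 TPM), the mitochondrial dismutase Sod2 (133 ± 11.2 TPM), the mitochondrial peroxiredoxin Prdx3 (109 ± 3.89 TPM), the peroxisomal enzyme Cat (64.6 ± 5.04 TPM), and the secreted dismutase Sod3 (17.3 ± 1.49 TPM). The order changed at the top under stimulation. Gpx4 had the highest mean at 1 Hz (870 ± 191 TPM) and 4 Hz (945 ± 164 TPM), with Sod1 next and Prdx1 behind it, although the ranges of Gpx4 and Sod1 overlapped at both. At 10 Hz, Prdx1 was again first at 714 ± 38.7 TPM, with a range that overlapped that of Gpx4 (693 ± 47.6 TPM). The sum over the 10 genes was 3506 ± 106 TPM in controls and 3561 ± 211, 3623 ± 244, and 3418 ± 126 TPM with 1, 4, and 10 Hz, and the ranges overlapped.

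Tissues stimulated at 1 and 4 Hz had higher levels of Sod1, Gpx1, Gpx4, and Prdx5 in CPM than control tissues, and the 10 Hz tissues differed detectably in none of the 10 genes. At 1 Hz, 4 of the 10 genes were called higher and 0 lower (edgeR, adjusted p under 0.05), against 37.3% of all tested genes called in either direction and 19.2% called higher. At 4 Hz, 4 of 10 were higher and 0 lower, against 51.4% of all genes called and 27.5% called higher. A share of 4 in 10 is close to those of the whole transcriptome, so the number of calls does not set these enzymes apart. The 1 Hz count dropped to 1, Prdx5, without replicate 4 or without replicate 6. With the trend of counts over transcript length removed from each library, 2 were higher and 2 lower at 1 Hz, and 4 higher and 3 lower at 4 Hz. In that fit, 2753 of 13315 genes were higher and 2400 lower at 1 Hz, and 3717 and 2997 at 4 Hz. No member was lower at an unadjusted p under 0.05 in the main edgeR fit or by DESeq2 at either frequency. Limma on log2(TPM + 1) called 2 lower at 1 Hz and 4 at 4 Hz, where 2945 and 4820 of 13422 genes were called lower. At 10 Hz, edgeR called 0 of the 10 in either direction, 0 had an unadjusted p under 0.05, and DESeq2 and limma also called 0, where 0.0376% of all genes were called. For 1, 4, and 10 Hz in turn, the median log2(FC) of the 10 genes was 0.08, 0.16, and -0.02, and that of all tested genes 0.04, 0.06, and 0.01. Because the tissue was sequenced in bulk, a change in the number of cells of a type cannot be told apart from a change in RNA per cell.

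**Figure D1:**
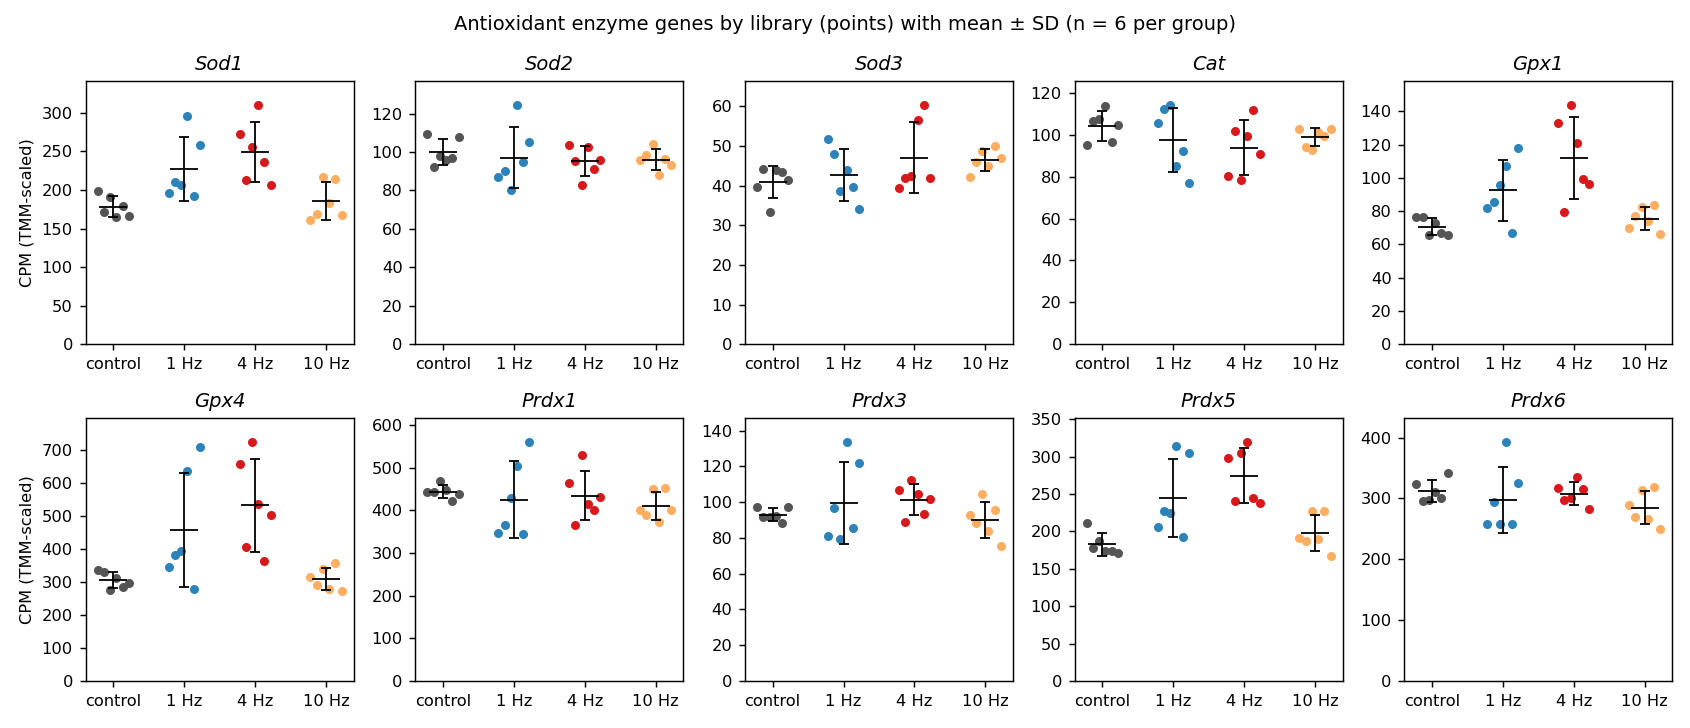
Level of each of the 10 genes in CPM after TMM scaling (vertical axis, starting at 0) in the 4 groups (horizontal axis). Each point is 1 library, and the bar with whiskers is the mean ± SD of 6 libraries. For Sod1, Gpx1, Gpx4, and Prdx5, all 6 libraries at 4 Hz lie above all 6 controls, and the 10 Hz libraries overlap the controls.

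Of the dismutases, Sod1 was called on the count scale and Sod2 and Sod3 were not. Sod1 (chromosome 16, 90017408 to 90027657 in GRCm39, plus strand) had a lowest, median, and highest level of 165, 175, and 198 CPM in controls. The same values were 192, 209, and 296 CPM at 1 Hz, 206, 246, and 310 CPM at 4 Hz, and 161, 176, and 216 CPM at 10 Hz. Every 4 Hz library and 4 of 6 at 1 Hz exceeded every control, and 12.9% of all tested genes likewise had all 4 Hz libraries above all controls. The log2(FC) was 0.35 ± 0.11 at 1 Hz (SE) and 0.48 ± 0.11 at 4 Hz, with edgeR adjusted p-values of 0.0142 and 0.00072. Sod2 (chromosome 17, 13224095 to 13259591) did not differ detectably. Its control libraries ranged from 92.4 to 109 CPM, and its log2(FC) was -0.04 at 1 Hz (95% interval -0.21 to 0.13) and -0.07 at 4 Hz (-0.24 to 0.10). Sod3 (chromosome 5, 52521070 to 52528883) was the least abundant, from 33.4 to 44.2 CPM in controls, with a log2(FC) of 0.06 at 1 Hz (-0.16 to 0.28) and 0.20 at 4 Hz (-0.02 to 0.42). At 10 Hz, 5 of 6 Sod3 libraries exceeded every control by a small margin, at a log2(FC) of 0.18 ± 0.11 and an edgeR adjusted p of 0.715.

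Both glutathione peroxidases rose. Gpx4 (chromosome 10, 79883000 to 79892273, plus strand) had the largest log2(FC) of the 10 genes at both frequencies on the count scale. Its lowest, median, and highest levels were 276, 304, and 337 CPM in controls and 274, 302, and 357 CPM at 10 Hz. They were 280, 388, and 709 CPM at 1 Hz and 362, 520, and 725 CPM at 4 Hz. The 2 highest of the 1 Hz libraries, replicates 4 (637 CPM) and 6 (709 CPM), were 2 of the 5 libraries rich in short transcripts, and the other 4 lay between 280 and 393 CPM. Its log2(FC) was 0.58 ± 0.19 and 0.80 ± 0.19 at the 2 frequencies (edgeR adjusted p-values of 0.0173 and 0.00119). Gpx1 (chromosome 9, 108216102 to 108217546, plus strand), the cytosolic selenoenzyme that reduces hydrogen peroxide, spanned 65.5, 69.9, and 76.4 CPM in controls. It spanned 66.9, 90.6, and 118 CPM at 1 Hz and 79.4, 110, and 144 CPM at 4 Hz. The 10 Hz values (66.2, 75.6, and 84.0 CPM) reached little beyond the controls. Its log2(FC) was 0.39 ± 0.12 at 1 Hz and 0.66 ± 0.12 at 4 Hz (edgeR adjusted p-values of 0.0159 and 0.000111). The 4 Hz and control libraries did not overlap for either gene.

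Of the 4 peroxiredoxins in the set, Prdx5 was the one called on the count scale. Prdx5 (chromosome 19, 6884065 to 6887792, minus strand), found in mitochondria, peroxisomes, and cytosol, had a lowest, median, and highest level of 171, 176, and 212 CPM in controls. It ran at 192, 226, and 314 CPM with 1 Hz, at 238, 271, and 320 CPM with 4 Hz, and at 167, 190, and 228 CPM with 10 Hz. Again, the 4 Hz libraries lay wholly above the controls and 4 of 6 at 1 Hz did. With 1 Hz the log2(FC) was 0.42 ± 0.11 and with 4 Hz 0.59 ± 0.11 (edgeR adjusted p-values of 0.00459 and 0.000124). In contrast, Prdx1 (chromosome 4, 116532123 to 116558398, plus strand) gave 422, 443, and 469 CPM in controls and 373, 401, and 452 CPM at 10 Hz. It gave 344, 398, and 561 CPM at 1 Hz and 365, 423, and 530 CPM at 4 Hz. Its 1 and 4 Hz libraries spread to both sides of the controls, at a log2(FC) of -0.06 at 1 Hz (95% interval -0.27 to 0.15) and -0.03 at 4 Hz (-0.24 to 0.18). Prdx6 (chromosome 1, 161051417 to 161079098), which also acts on phospholipid peroxides, ran from 296 to 342 CPM in controls with a log2(FC) of -0.07 at 1 Hz (-0.25 to 0.12) and -0.02 at 4 Hz (-0.20 to 0.16). Prdx3 (chromosome 19, 60852489 to 60863017) ran from 88.1 to 97.5 CPM in controls with a log2(FC) of 0.10 at 1 Hz (-0.11 to 0.32) and 0.12 at 4 Hz (-0.10 to 0.34). At 4 Hz, Prdx3 exceeded every control in 4 of 6 libraries, which the test did not call. Cat (chromosome 2, 103284194 to 103316185) ran from 95.2 to 114 CPM in controls, with a log2(FC) of -0.09 at 1 Hz (-0.28 to 0.09) and -0.15 at 4 Hz (-0.34 to 0.04). At 4 Hz, 3 of 6 Cat libraries lay below every control.

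At 10 Hz, the 10 estimates lay between -0.13 for Prdx6 and 0.18 for Sod3 in log2(FC). For Gpx4, the interval was the widest at -0.37 to 0.39, and for Prdx5 it was -0.11 to 0.35. The 1 Hz estimate of Prdx5 (0.42) lies outside the latter interval, but its own interval (0.19 to 0.65) overlaps it. The 1 Hz estimates of Sod1, Gpx1, and Gpx4 likewise lay outside their 10 Hz intervals. Direct tests between 10 and 1 Hz are given below.

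Direct comparison of the frequencies gave 0 members called between 4 and 1 Hz, where edgeR called 0 of all tested genes (0%). Gpx1 alone had an unadjusted p under 0.05, with a log2(FC) of 0.27 (95% interval 0.02 to 0.53), and DESeq2 and limma called 0 of the 10. Between 10 and 4 Hz, 4 of 10 members were called, all lower at 10 Hz, where 46.3% of all genes were called and 24.4% were lower. With the 5 libraries rich in short transcripts left out, 2 were called lower, where 1713 of 13558 genes were lower. With all libraries, the 4 genes were Sod1 (-0.43 ± 0.11, edgeR adjusted p = 0.00256), Gpx1 (-0.57 ± 0.12, adjusted p = 0.000798), Gpx4 (-0.79 ± 0.19, adjusted p = 0.00171), and Prdx5 (-0.47 ± 0.11, adjusted p = 0.00148). The 10 and 4 Hz libraries did not overlap for Gpx4 and Prdx5, as for 8.1% of all genes whose 10 Hz libraries all lay below. Between 10 and 1 Hz, 3 of 10 were called lower, where 27.9% of all genes were called and 13.1% were lower. Sod1 (-0.29 ± 0.11), Gpx4 (-0.57 ± 0.19), and Prdx5 (-0.30 ± 0.11) passed in edgeR with adjusted p-values of 0.0447, 0.0258, and 0.0429. Of the 12 fits that leave out 1 library, 6 gave 0 or 1 call, among them those without 1 Hz replicate 4 or 6 (0 calls each) and without 10 Hz replicate 2, 4, or 6 (0 each) or 1 (1 call).

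The 4 genes that rose share short transcripts, and the size of their change depended on how transcript length entered the scaling. By the ratio of counts to TPM in the files, Sod1, Gpx1, Prdx5, and Gpx4 were longer than only 4.00%, 6.58%, 6.78%, and 8.06% of tested genes, and Prdx1 than 12.7%. Sod3 was longer than 75.6%. When the trend of the counts with length was removed from each library, the log2(FC) of Sod1 dropped to 0.06 ± 0.06 at 1 Hz and 0.05 ± 0.06 at 4 Hz, and it was no longer called (edgeR adjusted p-values of 0.524 and 0.548). Gpx4 kept its call at 0.32 ± 0.11 and 0.46 ± 0.11, and so did Prdx5 at 0.18 ± 0.05 and 0.24 ± 0.05. Gpx1 kept it at 4 Hz (0.30 ± 0.07) but not at 1 Hz (0.14 ± 0.07, edgeR adjusted p = 0.0916). In the same fit, Prdx1 was called lower by -0.23 ± 0.06 at 1 Hz and -0.26 ± 0.06 at 4 Hz, and Prdx6 by -0.19 ± 0.06 at both. Sod2 was called lower (-0.22 ± 0.06) and Sod3 higher (0.34 ± 0.11) at 4 Hz. Limma on log2(TPM + 1), a scale on which the median of all genes was -0.14 at 1 Hz and -0.21 at 4 Hz, gave -0.32 ± 0.06 and -0.40 ± 0.06 for Prdx1. There Prdx6 was at -0.29 ± 0.07 and -0.33 ± 0.07, and Cat (-0.48 ± 0.16) and Prdx3 (-0.21 ± 0.07) were also called lower at 4 Hz. Prdx5 was called higher at 1 and 4 Hz, and Gpx1 and Gpx4 at 4 Hz, in the main fit and in all 13 other ways of scaling, filtering, and testing. At 1 Hz, the calls of Sod1, Gpx1, and Gpx4 rested on replicates 4 and 6. Without replicate 4, the edgeR adjusted p-values of Sod1, Gpx1, and Gpx4 were 0.0781, 0.0585, and 0.0763, and without replicate 6 they were 0.0547, 0.0788, and 0.0826, while Prdx5 kept its call. With all 5 libraries rich in short transcripts left out, the 4 genes were still called at 4 Hz, at 0.26 ± 0.09 for Sod1, 0.35 ± 0.10 for Gpx1, 0.44 ± 0.11 for Gpx4, and 0.37 ± 0.09 for Prdx5. In that fit at 1 Hz, only Prdx5 was called higher (0.21 ± 0.08, edgeR adjusted p = 0.0488), and Sod2, Prdx1, and Prdx6 were called lower (-0.19, -0.26, and -0.23). Of the 13558 genes tested there, 2147 were higher and 2230 lower at 1 Hz.

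**Figure D2:**
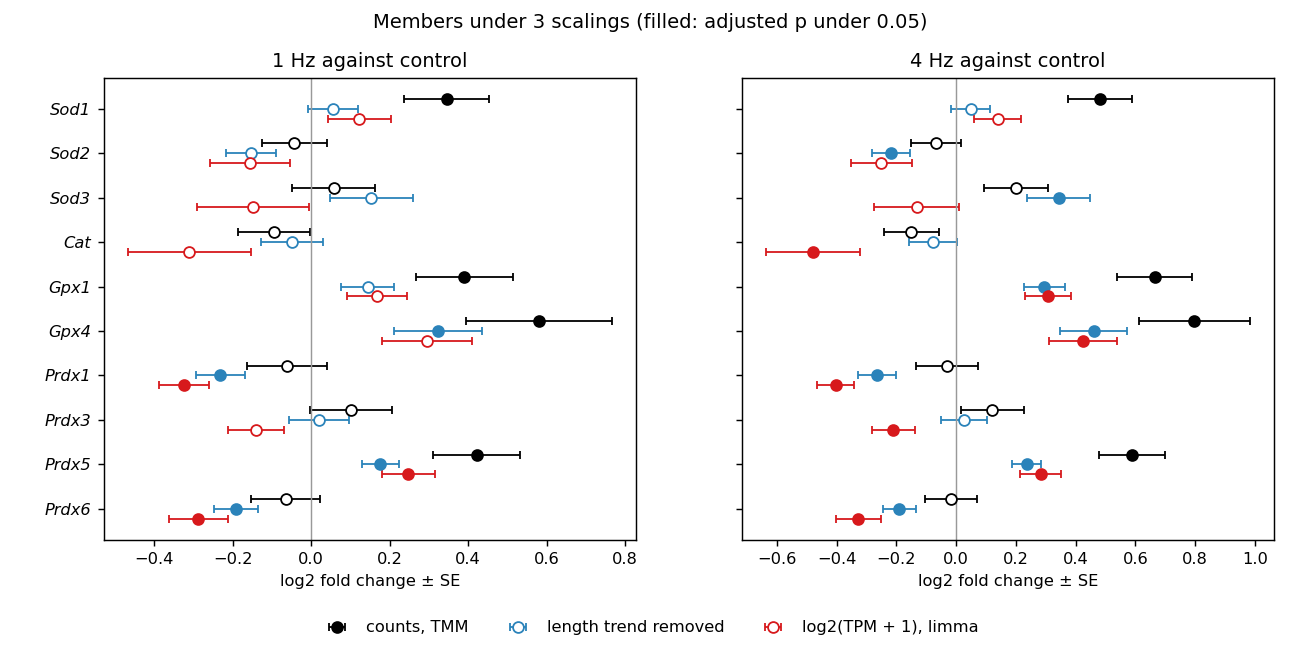
Log2(FC) ± SE of each gene (horizontal axis) at 1 Hz (left) and 4 Hz (right) against control, from counts with TMM scaling, from counts with the length trend removed, and from limma on log2(TPM + 1). Filled symbols passed an adjusted p under 0.05. Prdx5 is filled to the right of 0 in all 3 at both frequencies, Sod1 only with TMM scaling, and Prdx1 and Prdx6 are filled to the left of 0 in the other two.

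**Figure D3:**
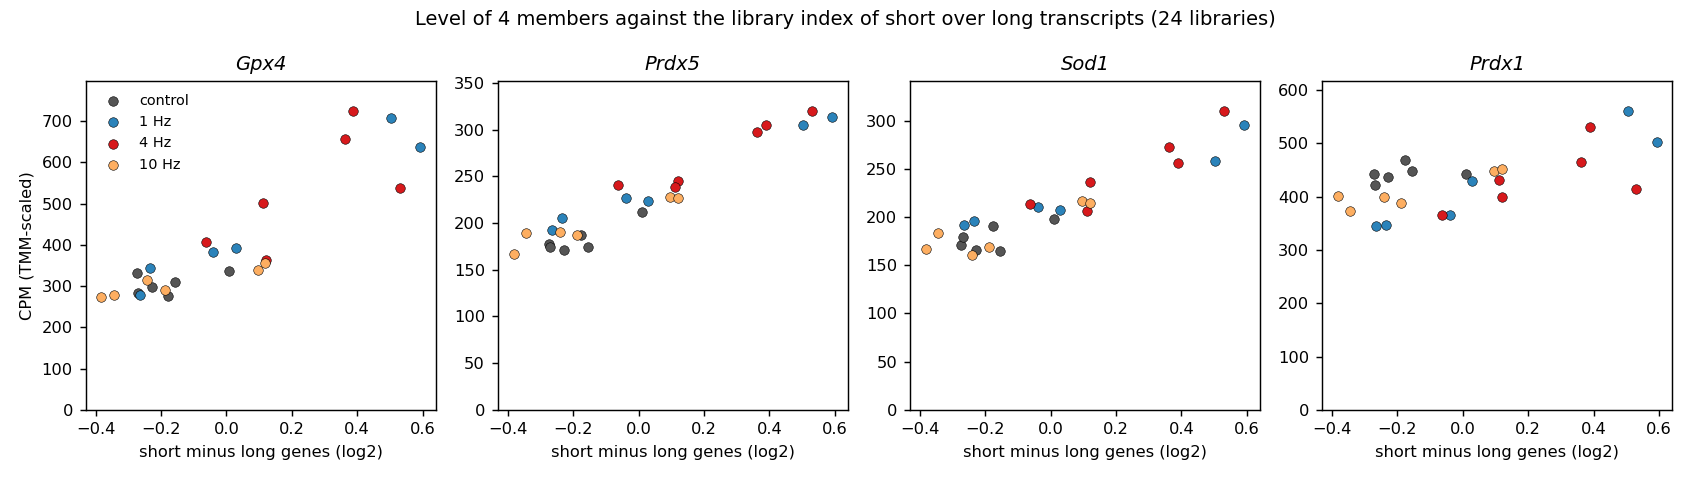
CPM of Gpx4, Prdx5, Sod1, and Prdx1 (vertical axes, starting at 0) against the index of short over long transcripts (log2, horizontal axis) in each of 24 libraries, colored by group. The 5 libraries above 0.3, all from 1 and 4 Hz, hold the highest Prdx5 values (298 to 320 CPM), and the other 4 Hz libraries hold 238 to 245 CPM.

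A ratio of 2 genes within a library is the same under any scaling of whole libraries, though not under a trend with length, and Prdx5 is shorter than Prdx1 and Sod1 than Sod2. For this, 7 ratios were compared with control by an exact two-sided permutation test (924 splits, smallest possible p = 0.00216) adjusted over 21 comparisons. The ratio of Prdx5 to Prdx1 TPM was 0.570 ± 0.041 in controls (SD, n = 6). It rose to 0.848 ± 0.071 at 1 Hz and 0.923 ± 0.133 at 4 Hz (exact permutation adjusted p = 0.0114 for both), and all 6 libraries of each frequency lay above every control. At 10 Hz it was 0.668 ± 0.078, above every control in 5 of 6 libraries, at an adjusted p of 0.114 by the exact permutation test, and without replicate 6 the adjusted p was 0.0182. The ratio of Sod2 to Sod1 fell from 0.222 ± 0.018 to 0.183 ± 0.014 at 1 Hz and 0.170 ± 0.021 at 4 Hz (exact permutation adjusted p = 0.0114 for both), below every control in 6 of 6 libraries each. At 10 Hz it stood at 0.214 ± 0.022. Prdx3 to Prdx1 was higher at 4 Hz (0.158 ± 0.014 against 0.138 ± 0.006, exact permutation adjusted p = 0.0364), but the adjusted p was 0.0818 without 4 Hz replicate 4 or without control replicate 2, 3, 4, or 5. Gpx1 to Gpx4 did not pass at 1 Hz (0.239 ± 0.041), 4 Hz (0.239 ± 0.036), or 10 Hz (0.273 ± 0.017) against 0.257 ± 0.009 in controls. Ratios of Sod3 to Sod1, Prdx6 to Prdx1, and Cat to Prdx1 did not pass at any frequency. With the 5 libraries rich in short transcripts left out, the Prdx5 to Prdx1 difference was 0.53 at 1 Hz and 0.61 at 4 Hz in log2, against 0.57 and 0.69 with all of them.

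**Figure D4:**
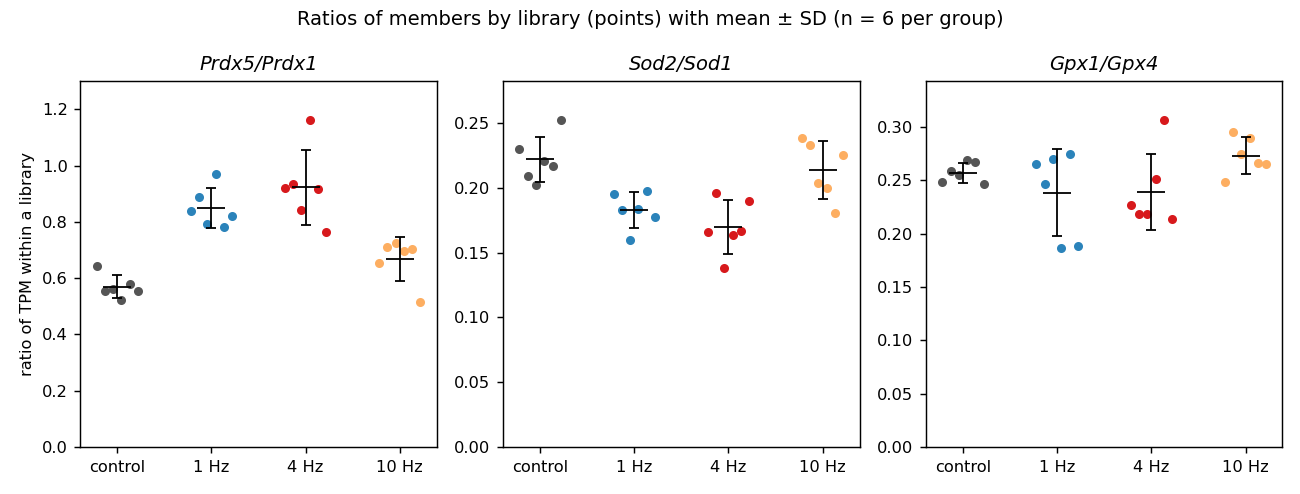
Ratio of TPM within a library (vertical axis, starting at 0) for Prdx5 to Prdx1, Sod2 to Sod1, and Gpx1 to Gpx4 in the 4 groups. Points are libraries, and the bar with whiskers is the mean ± SD of 6. All 1 and 4 Hz libraries lie above the controls for Prdx5 to Prdx1 and below them for Sod2 to Sod1.

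Prdx1 is a known NRF2 target, and NRF2 binds the antioxidant response element (ARE). The promoter of Prdx1, the gene that did not follow Prdx5, and that of Gpx4, the gene with the largest increase by count, are printed because they differ in this motif. The letters searched on both strands of the 250 bases before the RefSeq start were TGACNNNGC for the ARE core, GGGCGG for the GC box, CCAAT for the CCAAT box, and TATAAA for the TATA box. RefSeq promoters (GRCm38.p6) were found for 8 of the 10 genes, and each matched GRCm39 at a single place. The stretches below stop where annotated exons of protein-coding transcripts begin, and capitals mark the motifs.
Prdx1, chr4:116542546-116542684, GRCm39, plus strand: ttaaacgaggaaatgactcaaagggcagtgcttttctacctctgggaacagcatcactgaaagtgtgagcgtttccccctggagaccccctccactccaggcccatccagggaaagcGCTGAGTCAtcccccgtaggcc
Gpx4, chr10:79889149-79889321, GRCm39, plus strand: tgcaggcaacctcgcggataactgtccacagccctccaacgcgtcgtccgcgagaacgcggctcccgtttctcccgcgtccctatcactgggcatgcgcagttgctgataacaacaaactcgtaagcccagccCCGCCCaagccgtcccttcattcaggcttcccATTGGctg
The capitals are an ARE core read on the minus strand in Prdx1, and a GC box followed by a CCAAT box, both on the minus strand, in Gpx4. An ARE core was found in 2 of the 8 promoters, those of Prdx1 and Sod1, and in 10.2% of 32536 mouse promoters of the same length. A GC box was found in 7 of 8 (33.0% of all), a CCAAT box in 4 of 8 (33.8%), and a TATA box in 3 of 8 (12.3%). These counts cover all 250 bases, exons included. Exons of protein-coding transcripts covered 242 of the 250 bases for Sod1, all 250 for Prdx5, and 177 for Gpx1. For the rest they covered 41 (Prdx3) to 144 (Sod2). The Sod1 and Prdx5 windows thus lay mostly or wholly in exons, and exon overlap of the 32536 promoters was not examined.

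Some reads of 3 genes could belong to other genes. Prdx5 overlaps Trmt112 and Sod1 overlaps Scaf4 on the opposite strand, and how the counting used strand was not given in the sources used here. Without strand, reads of such partners cannot be told apart. Trmt112, a methyltransferase cofactor, held 37.2 ± 1.33% as many counts as Prdx5 in controls and was itself called higher at 1 Hz (0.33 ± 0.10) and 4 Hz (0.40 ± 0.10), with edgeR adjusted p-values of 0.0106 and 0.00157. Scaf4 fell at 4 Hz (-0.50 ± 0.15, edgeR adjusted p = 0.00679), opposite to Sod1. Gpx4-ps2, a processed pseudogene nearly identical to Gpx4 over 555 bases, held 11.3 ± 0.900% as many counts as Gpx4 in controls, so the split between the 2 is uncertain. Its log2(FC) at 4 Hz was 0.76 ± 0.22. For the other 7 genes, listed opposite-strand or near-identical partners held at most 0.453% of the gene's counts.

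Over the 24 libraries, the patterns closest to those of Gpx1, Prdx5, and Sod1 were those of ribosomal protein and other short genes. By the root mean square difference of centered log2 CPM among 11739 genes, Gpx1 lay nearest to Rpl11 (0.08) and Fau (0.08), both of the ribosome, where the median gene differed by 0.39. Among the genes closest to Prdx5 was Smdt1 (0.06), a subunit of the mitochondrial calcium uniporter. Sod1 lay nearest to Rpl13 (0.07) and Park7 (0.07), an oxidative stress sensor. These 5 genes had log2(FC) values from 0.46 to 0.75 at 4 Hz. Within the family, Sod1 and Prdx5 were the closest pair (0.08) and Cat and Gpx4 the most distant (0.57).

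Genes of related pathways, from thioredoxin and NADPH supply to oxidant sources and repair, were called in both directions. Of 148 such genes in 11 lists, 132 rows were tested. At 1 Hz 40 were higher and 20 lower, at 4 Hz 52 were higher and 26 lower, and at 10 Hz edgeR called 0, where 9 had an unadjusted p under 0.05 and limma called 0. Among all tested genes, 18.1% were lower at 1 Hz and 23.9% at 4 Hz, beside the shares called higher given above. The split depended on the scale: on log2(TPM + 1), limma called 9 higher and 28 lower at 1 Hz, and 12 higher and 44 lower at 4 Hz. On that scale, 488 of 13422 tested genes were higher and 2945 lower at 1 Hz, and 795 and 4820 at 4 Hz. The changes named below are log2(FC) at 1, 4, and 10 Hz in turn on the count scale, and for each gene the 4 Hz value passed the test and the 10 Hz value did not. Their SE lay between 0.07 and 0.19.

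A list of 10 related genes held further peroxidases and peroxiredoxins and the copper chaperone Ccs, and 5 of them passed the filter on low counts. All 5 were called higher at 4 Hz (2 with limma on log2(TPM + 1)), among them Prdx4 (0.60, 0.65, and 0.21) and Gpx8 (0.43, 0.55, and 0.07), both of the endoplasmic reticulum. Of 10 glutathione transferases, which couple glutathione to reactive compounds, 8 were higher and 1 lower at 4 Hz, with Mgst1 at 0.56, 0.71, and 0.19, Mgst3 at 0.48, 0.75, and 0.08, and Gsta4 at -0.18, -0.23, and 0.08. On the TPM scale, 3 were higher and 2 lower. In glutathione synthesis and reduction, 2 of 15 were higher and 5 lower. Both subunits of glutamate-cysteine ligase, the first step of glutathione synthesis, fell: Gclc stood at -1.07, -1.28, and -0.18, and Gclm at -0.57, -0.76, and -0.17. All 6 libraries at 4 Hz lay below every control for both, as for 14.7% of all genes. Hagh (0.34, 0.49, and 0.01) and Glrx (0.20, 0.16, and -0.09) were the 2 that rose, and Glrx turned to -0.16 at 4 Hz on log2(TPM + 1).

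In the thioredoxin system, 3 of 9 were higher and 2 lower at 4 Hz. Thioredoxin reductase Txnrd1 (-0.46, -0.59, and -0.08) and sulfiredoxin Srxn1 (-0.41, -0.48, and -0.09), which restores overoxidized peroxiredoxins, fell. Txndc17 (0.47, 0.57, and 0.08) rose, as did Nxn (0.13, 0.31, and 0.09), which turned to -0.02 on log2(TPM + 1). Of 12 tested NADPH rows, 5 were higher and 3 lower, with the pentose phosphate enzymes G6pdx (-0.9997, -1.21, and -0.12) and Pgd (-0.44, -0.53, and -0.03) lower, and Pgls (0.37, 0.54, and 0.19) and mitochondrial Idh2 (0.34, 0.39, and 0.13) higher. Among 9 genes of NRF2 control, 5 were higher and 3 lower. Nfe2l2, which encodes NRF2, stood at -0.12, -0.29, and 0.11 and Sqstm1 at -0.27, -0.34, and 0.04, while the small Maf partners Maff (0.49, 0.68, and 0.23) and Mafk (0.59, 0.75, and 0.26) were higher. The heme-degrading enzyme Hmox1, an NRF2 target listed with metal supply, stood at -0.86, -0.94, and -0.05.

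Of 18 selenoprotein genes and genes of their synthesis, 9 were higher and 3 lower at 4 Hz (3 and 5 on log2(TPM + 1)). Selenoh (0.54, 0.74, and 0.20) and Selenoo (0.48, 0.62, and 0.14) rose, and Sephs2, which makes the selenium donor that Gpx1 and Gpx4 require (-0.50, -0.71, and -0.30), and Selenoi (-0.25, -0.42, and 0.01) fell. In metal supply, 6 of 12 were higher and 2 lower, with the copper carriers Atox1 (0.31, 0.54, and -0.02) and Cox17 (0.37, 0.58, and -0.07) higher and the importer Slc39a14 (-0.14, -0.22, and -0.10) lower. With the length trend removed, Cox17 was at -0.0037 and uncalled. Of 9 genes tested in the list of oxidant sources, which also holds uncoupling proteins, 2 were higher, Xdh (0.44, 0.53, and 0.22) and Ero1a (0.37, 0.35, and 0.07). The 2 lower were the uncoupling proteins Ucp2 (-0.44, -0.60, and 0.10) and Ucp3 (-1.17, -0.83, and -0.29), which are not themselves oxidant sources. In the peroxisome, where Cat acts, 3 of 22 were higher and 3 lower, with Pex7 at 0.65, 0.80, and -0.04, Acaa1a at 0.28, 0.34, and 0.14, and Pex26 at -0.77, -0.67, and 0.05. In oxidative repair, 4 of 11 were higher and 2 lower. The DNA repair enzyme Apex1 stood at -0.61, -0.77, and -0.10, Msrb3 at -0.03, -0.44, and 0.02, Park7 at 0.30, 0.46, and 0.07, and Pon2 at 0.25, 0.29, and -0.03, the last at -0.02 for 4 Hz on log2(TPM + 1).

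Of the genes named from these lists, every one called lower at 4 Hz kept its call in all 13 other ways of scaling, filtering, and testing, except Gsta4, Slc39a14, and Msrb3. Of those called higher, Prdx4, Gpx8, Mgst1, Mgst3, Txndc17, Maff, Mafk, Selenoh, Selenoo, and Pex7 kept it in all 13. The calls of Hagh, Glrx, Nxn, Pgls, Idh2, Atox1, Cox17, Xdh, Ero1a, Acaa1a, Park7, and Pon2 ended on log2(TPM + 1), and some of them under other settings too. The lowest log2(FC) at 4 Hz across these fits was 0.0026 for Acaa1a (highest adjusted p by limma 0.987), 0.035 for Atox1 with the length trend removed (edgeR adjusted p = 0.739), 0.057 for Idh2 (limma adjusted p up to 0.686), and 0.20 for Pgls (up to 0.179).

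**Figure D5:**
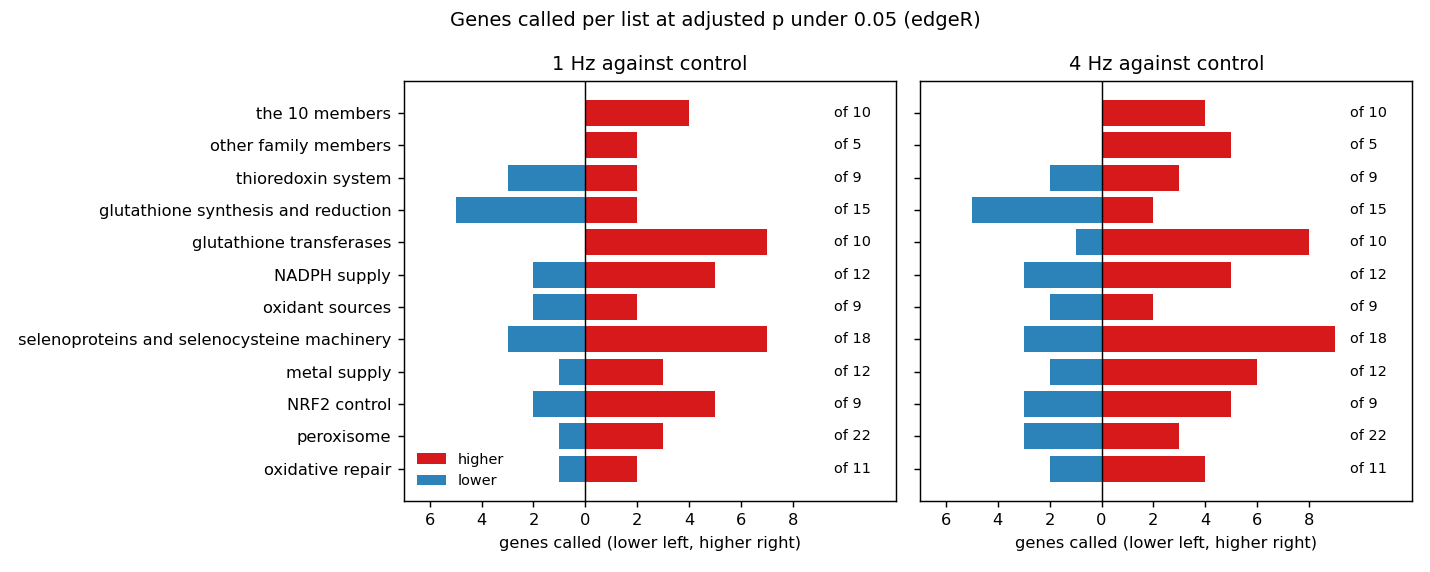
Number of genes called higher (right of 0) and lower (left of 0) at an adjusted p under 0.05 in the 10 enzymes and each of 11 lists, at 1 Hz and 4 Hz against control, with the number tested at the right. Glutathione synthesis and reduction has more lower than higher genes at both frequencies, while glutathione transferases have 7 higher and 0 lower at 1 Hz and 8 and 1 at 4 Hz.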

How the data were processed

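RNA of the 24 tissues was sequenced as 50-base read pairs from directional poly(A) libraries, and the labels say that low-input samples were ribodepleted, without naming them. The authors ran the nf-core/rnaseq pipeline with STAR and Salmon on GRCm39 and deposited estimated counts per gene. The authors also deposited TPM, the Salmon abundances per gene corrected for transcript length and summing to a fixed total per library. The submitters' processing notes also name BWA 0.7.12-r1039 and bedtools 2.25.0. Whether the counting used strand is not given in the sources used here.

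Estimated counts were rounded (19.0% of nonzero values were not whole within 0.001). Genes passed edgeR's filterByExpr (minimum count 10, total 15), counts were TMM scaled, and 1 quasi-likelihood model (edgeR 4.0.16, robust) covered all 24 libraries. P-values were adjusted by the Benjamini-Hochberg method over 13315 genes, and a gene was called at an adjusted p under 0.05. The biological coefficient of variation was 14.8%. Intervals are 95%. The study's own tests used DESeq2, here an alternative (DESeq2 1.42.0), as was limma 3.58.1 on log2(TPM + 1) and log2(TPM + 0.1). Further alternatives changed the scaling factors, the filter, the libraries fitted, or the pseudocount, removed the trend with length, added the replicate number as a block, and left out each library. The set without the 5 libraries rich in short transcripts was chosen after seeing the data. Tests on simulated data covered the main edgeR fit, the length-trend and replicate-block fits, DESeq2, and limma on log2(TPM + 1) with and without TMM scaling. The other alternatives were not tested on simulated data. TPM ratios were compared by exact permutation tests (scipy 1.17.1). Gene positions are from GENCODE, near-identical transcripts were found by blastn 2.17.0+ (95% identity over 200 bases or more), promoters are from RefSeq, and motif matching was by letters. Gene length was read from the ratio of counts to TPM.

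All 10 enzymes are named. From each of 11 lists, up to 2 genes per direction with the smallest p at 4 Hz among those called are named, and for the 3 enzymes with the smallest p against control, the 2 genes with the closest pattern. The enzymes and lists were chosen with earlier results of these data known. Some genes that this rule picked are not reported here.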

Additional observations from a re-analysis of the deposited data

Results flagged for a closer look

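In 10 Hz replicate 6, 3 TPM ratios to Prdx1 lay far from those of the other 5 libraries of its group by Dixon's criterion for 6 samples. The ratio of Prdx5 to Prdx1 was 0.517 there against 0.655 to 0.726 in the others, that of Prdx3 to Prdx1 was 0.119 against 0.142 to 0.156, and that of Prdx6 to Prdx1 was 0.496 against 0.597 to 0.611. All 3 share the library and the denominator, so they are not separate observations. Of 68 groups of values examined, chance alone flags about 1 in 20, or 3.4. Without this library, the Prdx5 to Prdx1 difference at 10 Hz was 0.30 in log2 (exact permutation adjusted p = 0.0182) against 0.22 with it (0.114).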

How the results depend on the processing

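Most values kept their direction and their side of the threshold. Of those recomputed under settings other than leaving out a single library, 1212 did so, 89 lost a call, 22 gained one, 40 counts moved by more than 1.5 times, and 31 values changed sign. Among those that left out 1 library, the figures were 1383, 41, 5, 11, and 24. The causes were not tested. Prdx5 at 1 Hz (0.18 to 0.44) and 4 Hz (0.24 to 0.62) and Gpx1 (0.30 to 0.70) and Gpx4 (0.42 to 0.83) at 4 Hz stayed called under all 13 settings. The intervals of these enzymes reach about 0.2 to 0.4 on either side of a log2(FC), so smaller changes were not detectable. Libraries of a group differed by more than counting error (chi-square per degree of freedom of at least 4.75), and the part of depth in these widths was not tested.

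At 1 Hz, the 4 enzymes called higher became 1 with a log2(FC) above 0.5 required as well, 1 with limma on log2(TPM + 1), 1 on log2(TPM + 0.1), 2 with the length trend removed, and 1 without the 5 libraries rich in short transcripts. The 0 called lower became 2, 2, 2, and 3 in the last 4 of these. At 4 Hz, the 4 called higher stayed at 4 or within 1.5 times of it, and the 0 called lower became 1 with total-count scaling, 4 with limma on log2(TPM + 1), 4 on log2(TPM + 0.1), and 3 with the length trend removed. Between 10 and 1 Hz, the 3 called lower became 1 with the log2(FC) limit, 1 with total counts, 1 when only both groups were fitted, 1 with limma on TMM-scaled log2(TPM + 1), and 1 with the length trend removed, and 0 with no filter, 0 on log2(TPM + 1), 0 on log2(TPM + 0.1), and 0 without the 5 libraries. Between 10 and 4 Hz, the 4 called lower became 2 with the log2(FC) limit and 2 without the 5 libraries, and the 0 called higher became 1 on both TPM scales. The 40 pathway genes higher at 1 Hz became 8 with the log2(FC) limit, 24 with total counts, and 9 on each TPM scale. They became 25 on TMM-scaled TPM and 23 without the 5 libraries, and the 20 lower became 10 with the limit. At 4 Hz, the 52 higher became 21 with the limit and 12 on each TPM scale, and the 26 lower became 14 with the limit and 44 on each TPM scale.

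Of the values that changed sign, Prdx3 at 4 Hz passed the test in the new direction on both TPM scales (lowest limma adjusted p = 0.0213) and the others did not. On TMM-scaled log2(TPM + 1), Sod2 was at 0.012 at 1 Hz and 0.015 at 4 Hz. On log2(TPM + 1) and log2(TPM + 0.1), Sod3 was at -0.15 and -0.16 at 1 Hz and -0.13 and -0.14 at 4 Hz, Prdx3 at -0.14 and -0.14 at 1 Hz and -0.21 and -0.21 at 4 Hz, Gpx4 at -0.0070 and -0.0070 at 10 Hz, and, at 4 Hz, Nxn at -0.022 and -0.023, Glrx at -0.16 and -0.17, and Pon2 at -0.017 and -0.017. With total counts, Sod3 was at -0.014 at 1 Hz and Prdx3 at -0.00045 at 4 Hz. With upper-quartile factors, Prdx1 was at 0.0034 and Prdx6 at 0.017 at 4 Hz. With the length trend removed, Cox17 was at -0.0037 at 4 Hz and Gpx4 at -0.016 at 10 Hz. Without the 5 libraries, Cat was at 0.022 and Prdx3 at -0.12 at 1 Hz, and Prdx3 at -0.0031 at 4 Hz. Among log2 ratios, leaving out these libraries put Gpx1 to Gpx4 at 0.037 at 1 Hz and Cat to Prdx1 at 0.14 at 4 Hz, and Cat to Prdx1 at 0.28 at 1 Hz passed the exact permutation test. Ratios of estimated counts put Prdx6 to Prdx1 at -0.019 at 10 Hz and Cat to Prdx1 at -0.018 at 1 Hz, and Prdx5 to Prdx1 at 0.23 at 10 Hz passed.

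Replicate numbers did not pair the libraries: deviations of same-numbered libraries had a median correlation of -0.02 over 36 pairs, 3 of them over 0.1, and 1 of 24 libraries correlated best with its own number. With the replicate number as a block, the 3 enzymes called lower between 10 and 1 Hz became 0 and the counts of enzymes called in the other comparisons were the same. For the ratios, a block means flipping signs within numbers. The lowest adjusted p that this sign-flip test gave over the 21 comparisons was 0.131. The differences of -0.28 and -0.39 for Sod2 to Sod1 at 1 and 4 Hz were thus not called with the block. Neither were 0.19 for Prdx3 to Prdx1 at 4 Hz, nor 0.57 and 0.69 for Prdx5 to Prdx1 at 1 and 4 Hz.

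Leaving out each library in turn gave 1 to 4 enzymes higher and 0 to 0 lower at 1 Hz, 4 to 4 higher and 0 to 1 lower at 4 Hz (Cat at -0.22 without 4 Hz replicate 5), 0 to 4 lower between 10 and 1 Hz, and 4 to 4 lower between 10 and 4 Hz. Pathway genes ranged from 24 to 48 higher and 18 to 21 lower at 1 Hz, and from 46 to 54 and 23 to 29 at 4 Hz. Signs turned for Sod3 (-0.0028 to 0.087) and Prdx3 (-0.025 to 0.15) at 1 Hz, Prdx1 (-0.13 to 0.016) and Prdx6 (-0.071 to 0.011) at 4 Hz, and Gpx4 (-0.036 to 0.044) at 10 Hz. The log2 ratios ranged, at 1, 4, and 10 Hz, over -0.31 to -0.24, -0.43 to -0.33, and -0.092 to -0.011 for Sod2 to Sod1, over 0.53 to 0.61, 0.62 to 0.74, and 0.20 to 0.30 for Prdx5 to Prdx1, over 0.13 to 0.25, 0.16 to 0.23, and 0.057 to 0.14 for Prdx3 to Prdx1, over -0.17 to -0.061, -0.19 to -0.087, and 0.062 to 0.11 for Gpx1 to Gpx4, over -0.0098 to 0.087, 0.019 to 0.15, and -0.026 to 0.049 for Prdx6 to Prdx1, and over -0.070 to 0.15, -0.16 to 0.033, and 0.021 to 0.098 for Cat to Prdx1. Gpx1 to Gpx4 at 4 Hz without replicate 5 and Prdx3 to Prdx1 at 1 Hz without replicate 3 and at 10 Hz without replicate 6 gained a call.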
